A study of Mus musculus with 4 samples.

Results

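The genes described here are those of 2 neurotrophins, Bdnf and Ntf3, and of 4 neurotrophin receptors, Ntrk2, Ntrk3, Ngfr and Sort1. They were found by gene symbol, 6 of the 23991 symbols listed in each of 4 gene expression tables from mouse amygdala. Every library came from NpyCre/+;TRAPlox/lox mice, in which ribosomes are tagged in cells where Cre, driven by the neuropeptide Y gene Npy, has acted. One group was the total RNA of the tissue (input) and the other the RNA pulled down with the tagged ribosomes (IP). There were 2 libraries per group with the RNA of 3 mice pooled in each, and each IP library came from the same pool as its input. Both groups thus share genotype and tissue and differ in the pull-down alone. Ages, and libraries from tissue lacking Cre, were not part of what was analysed here, so RNA that is pulled down without the tag was not measured.

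Neurotrophins are secreted growth factors, made as longer pro-forms that proteases cut to the mature ligand. Each mature ligand binds a preferred receptor tyrosine kinase: brain-derived neurotrophic factor (Bdnf) and neurotrophin-4 (Ntf5 in these files) bind TrkB (Ntrk2), while neurotrophin-3 (Ntf3) binds TrkC (Ntrk3). All of them also bind the p75 receptor (Ngfr), and the pro-forms bind p75 together with sortilin (Sort1), a Vps10-domain sorting receptor. In the forebrain, Bdnf is known as a product of excitatory neurons, while TrkB is present in most neurons and, as a form without the kinase, in astrocytes. In the amygdala, Bdnf and TrkB are known for their part in fear learning.

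The 4 libraries summed to between 334759 and 423985 FPKM (fragments per kilobase of transcript scaled to mapped reads, a unit that sets levels of different genes on one scale per length). Npy itself was 11.8-fold higher in IP. All 6 GABAergic neuron markers rose, with a summed level of 279.2 to 283.5 FPKM in input and 1118 to 1229 in IP. Of 7 glutamatergic markers 5 fell and 2 did not pass, and of 8 astrocyte markers 7 fell and 1 did not pass. Slc7a10, 1 of the 7 astrocyte falls, reached FPKM of 1 in the input libraries only and adds nothing to that count. No list of genes specific to the amygdala was used, so the tissue was checked by neuron and glia markers alone.

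All 6 neurotrophin and receptor genes had lower levels in both IP libraries than in either input library, an arrangement found for 41.4% of the genes tested. Of the 6, 5 fell past an adjusted p of 0.05 (limma on log2(FPKM + 1), adjusted over 12415 genes), 0 rose and Ntf3 did not pass, beside 33.9% of all genes tested that fell. The median log2 change was -0.51 over the 6 genes and 0.03 over all genes tested. Ngfr reached FPKM of 1 in the input libraries only, so it entered the test through the group in which it was high, and its fall adds nothing to that count. Of all genes tested, 37.0% rose.

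**Figure D1:**
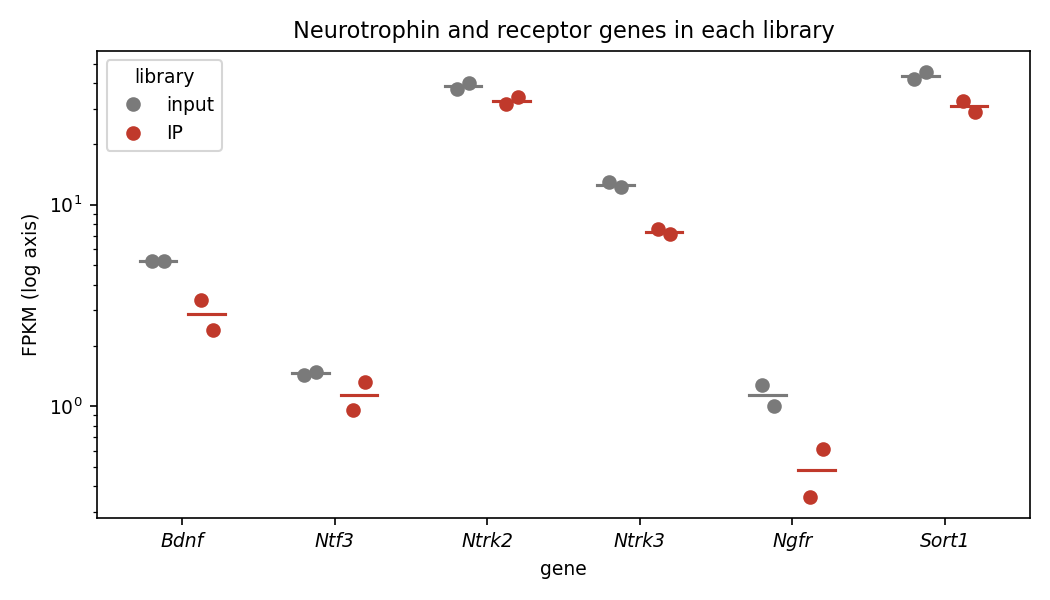
FPKM on a log axis of the 6 neurotrophin and receptor genes in the 2 input (grey) and 2 IP (red) libraries, with a bar at each group's mean. Both IP points lie below both input points for every gene shown, from Sort1 at 41.8 and 45.6 FPKM in input down to Ngfr at 0.356 and 0.611 FPKM in IP.

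The Bdnf locus spans 109674700 to 109727043 of chromosome 2 (build mm10, as for every locus given; plus strand). The gene has many alternative starts, each with its own first exon joined to a shared coding exon, and the deposited table counts 9 groups of starts under the single Bdnf value. The table of promoter windows from RefSeq (build GRCm38.p6, 250 bases before to 50 after a start) holds 7 windows for Bdnf. One of them is printed because the start it belongs to, that of exon IV, is the best known calcium- and activity-responsive start of the gene. The capitals mark TCACGTCA, a variant of the cyclic AMP response element TGACGTCA, which was searched on both strands along with the perfect element.

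Bdnf, chr2:109692186-109692485, plus strand: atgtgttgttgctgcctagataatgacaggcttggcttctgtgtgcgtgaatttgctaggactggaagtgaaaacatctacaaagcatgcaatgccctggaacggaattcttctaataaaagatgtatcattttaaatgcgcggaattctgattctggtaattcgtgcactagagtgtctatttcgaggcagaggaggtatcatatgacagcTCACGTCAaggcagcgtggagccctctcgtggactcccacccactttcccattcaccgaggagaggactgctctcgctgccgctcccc

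The variant stands 31 bases before the start and was found in 0.441% of all 32851 windows. It was in 1 of the 11 windows that the table holds for Bdnf (7), Ntf3 (2), Ntrk2 (1) and Ngfr (1), and the perfect element, in 1.79% of all windows, was in 0 of the 11. Ntrk3 and Sort1 were not matched. The deposited values do not separate the starts of Bdnf, so the fall described next is that of all its transcripts together.

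Bdnf was listed at 5.23 and 5.25 FPKM in input replicates 1 and 2, and at 3.38 and 2.39 FPKM in IP replicates 1 and 2. The SD was 0.013 FPKM over the input libraries and 0.699 over the IP libraries (n = 2 each), with replicate 1 the higher, and the groups did not overlap. The mean was 1.82-fold lower in IP, a log2 change of -0.70 (SE 0.13; 95% interval -1.01 to -0.38; limma, adjusted p = 0.00349). The call held in each of 17 alternative settings, with changes from -1.11 after rescaling each library to a common sum to -0.38 with a pseudocount of 5. The confidence limits that Cufflinks listed for each library also lay apart between the groups. If each limit lies 2 SD of a read count from its value, the reads behind the Bdnf values can be estimated. They come to 397, 423, 296 and 168 in input 1, input 2, IP 1 and IP 2.

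Ntf3, on chromosome 6 from 126101412 to 126166744 (minus strand), was listed at 1.43 and 1.48 FPKM in input and at 0.957 and 1.33 FPKM in IP. All 4 values lay near 1, the second IP library came close to the input libraries, and the limits listed for the 2 groups overlapped. The log2 change of -0.20 did not pass (95% interval -0.48 to 0.07; limma, adjusted p = 0.152), so an IP level a little higher or up to 0.48 lower on that scale could not be told from the input at this depth. On the same assumption, only 23 to 34 reads lie behind each Ntf3 value. Without IP replicate 1 the change was -0.08, and without IP replicate 2 it was -0.33 (limma, adjusted p = 0.593 and 0.0537). Quantile normalization put the Ntf3 change at 0.25, with a limma adjusted p of 0.0924. Rescaling made it a called fall of -0.55 (limma, adjusted p = 0.021), as did either transcript length correction, at -0.50 (limma, adjusted p = 0.00893 and 0.00889).

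Ntf5, the gene of neurotrophin-4, never reached the level needed for testing: its input libraries held 0.185 and 0.153 FPKM, IP replicate 1 held 0.0696, and IP replicate 2 listed it at 0. The ratio of Bdnf to Ntf3 FPKM, which does not depend on how libraries are scaled to each other, was 3.65 and 3.54 in input and 3.53 and 1.80 in IP. Bdnf thus led Ntf3 in every library, and only IP replicate 2, where Bdnf was lowest, stood apart from the other 3 ratios. With 2 libraries per group, an exact permutation test of a single ratio cannot reach 0.05, and none is given.

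Of the Trk receptor genes Ntrk2 and Ntrk3, the latter fell more clearly. Ntrk3, the gene of TrkC, lies on chromosome 7 from 78192114 to 78577838 (minus strand). It was listed at 13.0 and 12.2 FPKM in input and at 7.57 and 7.12 FPKM in IP, with both groups tight and well apart. The mean was 1.71-fold lower in IP, with a log2 change of -0.70 (SE 0.07; 95% interval -0.88 to -0.53; limma, adjusted p = 0.000273). With quantile normalization the change was -0.67. Corrected for length, it was 0.22 (limma, adjusted p = 0.065) with the longest GENCODE transcript, of 19703 bases, part of which lies outside the locus in the files, and -0.62 (adjusted p = 0.000568) with the longest curated RefSeq transcript, of 3833 bases.

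Ntrk2, the gene of TrkB, lies on chromosome 13 from 58806569 to 59133970 (plus strand). It was listed at 37.5 and 40.2 FPKM in input and at 31.5 and 34.0 FPKM in IP, a high level in both groups, with 77.7% to 85.6% of the genes tested below it in each library. The groups lay near each other but apart. The mean was 1.18-fold lower, with a log2 change of -0.24 (SE 0.06; 95% interval -0.40 to -0.08; limma, adjusted p = 0.0159), the smallest of the 5 falls. Leaving out input replicate 2 gave -0.19 (limma, adjusted p = 0.0995) and leaving out IP replicate 1 gave -0.18 (adjusted p = 0.062), neither of which passed. Median-of-ratios size factors gave -0.18, also short of the threshold (adjusted p = 0.0512). It turned upward when GENCODE transcript length was corrected for, at 0.20 (limma, adjusted p = 0.0299), or RefSeq length, at 0.21 (adjusted p = 0.025), and reached -0.50 with quantile normalization and -0.58 after rescaling. The direction for Ntrk2 thus rested on the processing. The gene-level values do not separate the kinase form from the form without it.

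The ratio of Ntrk2 to Ntrk3 FPKM was 2.88 and 3.30 in input and 4.16 and 4.78 in IP, so Ntrk2 led in all 4 libraries and by more in the IP libraries. Like the other ratios within a library, it needs no scaling between libraries, but it does depend on transcript length. With GENCODE length correction the log2 changes were 0.20 for Ntrk2 and 0.22 for Ntrk3, and with RefSeq lengths 0.21 and -0.62. The ratio of Sort1 to Ntrk2 FPKM was 1.12 and 1.13 in input and 1.03 and 0.849 in IP.

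Ngfr, on chromosome 11 from 95568821 to 95587698 (minus strand), encodes p75, which has no kinase and signals through bound adaptors. It was the lowest of the 6 genes, listed at 1.27 and 1.01 FPKM in input and at 0.356 and 0.611 FPKM in IP. Both groups were low and spread, and their confidence limits overlapped. The mean was 2.36-fold lower in IP, with a log2 change of -0.53 (SE 0.13; 95% interval -0.84 to -0.22; limma, adjusted p = 0.00988). The change was -0.53 without the filter (adjusted p = 0.0222), 0.07 with quantile normalization (adjusted p = 0.637) and -1.06 after rescaling.

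Ngfr is a known marker of the cholinergic neurons of the basal forebrain. The cholinergic markers Chat, Slc18a3 and Slc5a7 were all low and were all lower in IP, summing to between 3.56 and 3.73 FPKM in the input libraries and between 0.527 and 0.703 in the IP libraries. Of these 3 only Chat, the gene of choline acetyltransferase, passed the filter, and it fell by 1.17 on the log2 scale. Like Ngfr, Chat reached FPKM of 1 in the input libraries only, so it entered the test through the group in which it was high. The 4 mural cell markers fell as well, from 22.91 to 24.36 FPKM in sum to 3.57 to 4.61, and none of these markers was at 0 in both IP libraries. Of the mural markers, Pdgfrb and Acta2 also reached FPKM of 1 in the input libraries only. The part of either cell type in the Ngfr values was not tested.

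Sort1, the gene of sortilin, lies on chromosome 3 from 108284064 to 108361519 (plus strand). It was listed at 41.8 and 45.6 FPKM in input and at 32.6 and 28.9 FPKM in IP, the highest of the 6 genes in both input libraries. The mean was 1.42-fold lower in IP, with a log2 change of -0.50 (SE 0.08; 95% interval -0.68 to -0.31; limma, adjusted p = 0.00149), and the groups lay apart. Neither length correction left the Sort1 fall past the threshold, at -0.18 with GENCODE lengths (limma, adjusted p = 0.0596) and -0.16 with RefSeq lengths (adjusted p = 0.0839), and the change was -0.76 with quantile normalization and -0.84 after rescaling. Sort1 stood above Ntrk2 in both input libraries, with limits of 39.8 to 43.9 against 36.2 to 38.8 FPKM in replicate 1. In IP replicate 1 the limits of the 2 genes overlapped, and in IP replicate 2 Sort1 stood below Ntrk2, at 27.5 to 30.3 against 32.7 to 35.4 FPKM. The ratio of Sort1 to Ngfr FPKM was 32.9 and 45.3 in input and 91.5 and 47.4 in IP, so sortilin transcripts far outnumbered those of p75 everywhere, with no clear change beyond the spread of the IP libraries.

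**Figure D2:**
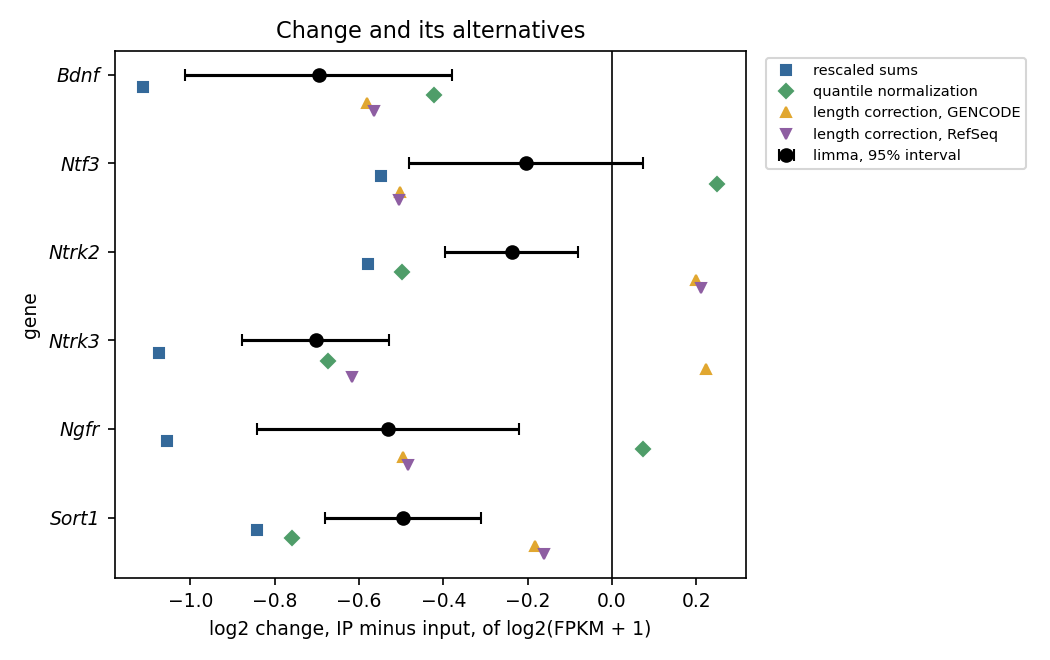
Log2 change (IP minus input, of log2(FPKM + 1)) of the 6 genes, with the 95% interval from limma in black and the values under 2 other scalings and 2 corrections for transcript length as coloured marks. Bdnf stays between -1.11 and -0.42 under these settings, while marks of Ntf3, Ntrk2, Ntrk3 and Ngfr fall on both sides of 0.

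Length and scaling moved with these results. Across 12349 genes tested, which are not independent replicates, the log2 change and the GENCODE transcript length had a Spearman correlation of -0.367, so that longer transcripts tended to be lower in IP. The lengths were 8744 bases for Ntrk2, 6836 for Sort1, 4266 for Bdnf, 3446 for Ngfr and 1483 for Ntf3, with a median of 3189 over the genes tested. Rescaling moved the median change of all genes from 0.03 to -0.34. Relative to that median, Bdnf changed by -0.77, Ntrk3 by -0.74, Ngfr by -0.72, Sort1 by -0.50, Ntrk2 by -0.24 and Ntf3 by -0.21 after rescaling. Levels in bulk RNA do not tell fewer cells of a type from less RNA per cell.

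No other entry kept for analysis overlapped the loci of the 6 genes. The small RNA entries and those with a failed status, which were left out, were not searched. GENCODE M21, on the same build, places opposite-strand models over Bdnf (1), Ntrk2 (3), Ntrk3 (1) and Sort1 (1), same-strand models over Ntrk2 (1), Ntrk3 (2) and Sort1 (1), and none over Ntf3 or Ngfr. Strand would not separate reads of the same-strand models from those of the genes where exons overlap, and the sources used here do not say whether counting used strand for the others.

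For each gene, the closest other gene was sought over the 4 libraries by the Euclidean distance of log2(FPKM + 1), with predicted genes left out. Inppl1 and Zfpm1 were nearest to Bdnf (distances 0.0967 and 0.11), Prkab2 and Phc1 to Ntrk3 (0.101 and 0.117), and Negr1 and Cenpb to Ntrk2 (0.0955 and 0.116). Neurl1a and Add2 were nearest to Sort1 (0.123 and 0.138), Efna1 and Asprv1 to Ngfr (0.119 and 0.146), and Tap2 and Ppp1r13l to Ntf3 (0.0958 and 0.119). Likeness over 4 libraries, 2 of each kind, is a description of level and of one difference only.

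The other genes of the pathway were taken from 6 lists with 78 genes in all. Of these 69 were tested, and 19 rose, 38 fell and 12 did not pass, with a median log2 change of -0.26. These counts, and those of each list, stand beside the 37.0% of all genes tested that rose and the 33.9% that fell, and a list near those shares is not a result about the list. Among further ligand and receptor genes, the 4 genes related to sortilin all fell: Sorcs2, a partner of p75 for pro-neurotrophins, by 0.81, Sorl1 by 0.60, Sorcs3 by 0.48 and Sorcs1 by 0.43 on the log2 scale (limma, adjusted p = 0.000218 to 0.034). The Sorcs3 fall passed without input replicate 1 (-0.73) but not without input replicate 2 (-0.23, limma adjusted p = 0.112) or without either IP library (adjusted p = 0.0615 and 0.0648). The Sorcs1 fall did not pass without input replicate 1 (-0.35, limma adjusted p = 0.0536). After correction for transcript length 1 of the 4 still passed, and with quantile normalization 2. Nradd, a relative of p75, did not reach the filter.

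Among 12 genes for cutting and secreting pro-neurotrophins, 8 were tested, of which 2 rose, 5 fell and 1 did not pass. Furin, which cuts pro-neurotrophins inside the cell, rose from 6.15 ± 0.25 to 8.36 ± 0.10 FPKM (SD, n = 2), a log2 change of 0.39 (limma, adjusted p = 0.00312). Hap1, whose product takes part in Bdnf transport, rose by 0.48, but did not pass in limma once libraries were rescaled (0.14, adjusted p = 0.346), quantile normalized (0.03, adjusted p = 0.815) or fitted without input replicate 1 (0.42, adjusted p = 0.0703). Without IP replicate 2 the Hap1 change was 0.30. The list held 0 rises after rescaling, and 3 falls with quantile normalization or either length correction. Plat, the gene of tissue plasminogen activator, which activates plasminogen, fell by 0.61, and Pcsk5, a furin-like convertase gene, by 0.56. The Pcsk5 fall did not pass with quantile normalization (-0.14) or after correction for length (-0.22). Cpe, which encodes carboxypeptidase E, a sorting receptor for pro-Bdnf, fell by 0.46. Pcsk7 was listed at 4.92 and 4.97 FPKM in input, at 0 in IP replicate 1 and at 3.23 in IP replicate 2, and did not pass (log2 change -1.53; limma, adjusted p = 0.0588). With the replicate block its fall passed (adjusted p = 0.00656), and its change was -0.49 without IP replicate 1 and -2.57 without IP replicate 2. Plg, the gene of plasminogen, was at most 0.0351 FPKM, and the metalloprotease genes Mmp3 and Mmp7 were listed at 0 in all 4 libraries.

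None of the 10 genes listed as membrane partners of Trk receptors rose. Whether each product binds a Trk receptor was not examined here. Of 9 tested, 8 fell and 1 did not pass, and after correction for transcript length 5 fell. Lrig1, whose product restrains receptor tyrosine kinases, went from 5.56 ± 0.286 to 1.95 ± 0.047 FPKM (SD, n = 2), a log2 change of -1.15 (limma, adjusted p = 7.63e-05). Slitrk2 and Islr2 fell by 0.92 and 0.83. Slitrk5, which encodes a TrkB partner, was lower by 0.22, and Ptprs, which encodes a synaptic partner of TrkC, by 0.44 on the log2 scale (limma, adjusted p = 0.034 and 0.0007). The Slitrk5 fall did not pass without input replicate 1 or 2 or IP replicate 2 (adjusted p = 0.0681, 0.15 and 0.135).

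The Trk adaptors were divided. Of 19 genes 18 were tested, with 8 higher, 8 lower and 2 not past the threshold. Gab1, which encodes a docking protein, fell 4.21-fold, from 5.01 and 4.91 FPKM in the input libraries to 1.13 and 1.23 in the IP libraries, a log2 change of -1.45 (limma, adjusted p = 4e-05), whereas its relative Gab2 rose by 0.71. Frs3, the gene of a docking protein that binds Trk receptors, rose 2.29-fold, from 9.67 and 10.1 FPKM to 21.5 and 23.7, a log2 change of 1.12 (limma, adjusted p = 5.08e-05), while its relative Frs2 fell by 0.26. Shc1, the founding Shc adaptor gene, fell by 0.82, and Shc2 and Shc3, the neuronal forms, by 0.26 and 0.35. Plcg1, the phospholipase that Trk receptors activate, fell by 0.26, a fall that did not pass without input replicate 2 or IP replicate 2 (limma, adjusted p = 0.0912 and 0.0636). The falls of Shc2 and Shc3 did not pass without either input replicate or without IP replicate 2 (limma, adjusted p = 0.0597 to 0.124), and that of Frs2 did not pass without input replicate 2 or IP replicate 1 (adjusted p = 0.0801 and 0.0523). Without IP replicate 2, the Shc3 change was -0.21. The count of 8 falls was 2 without input replicate 2, 4 without IP replicate 2, 4 after correction for length and 2 with RefSeq lengths, and the count of 8 rises was 2 after rescaling and 5 with quantile normalization.

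In the Ras and MAP kinase cascade all 16 genes were tested, with 5 higher, 9 lower and 2 not past the threshold. Hras and Map2k2 rose by 0.59 and 0.55. Nras fell by 0.74, Mapk7 (ERK5) by 0.81, and Rps6ka3, an ERK-activated kinase gene, by 0.75. Mapk3 (ERK1) held 153 and 169 FPKM in the input libraries against 160 and 177 in the IP libraries, and did not pass. Creb1, the gene of the transcription factor at the end of this cascade, fell by 0.37. The 9 falls became 5 after correction for length, and the 5 rises became 2 after rescaling.

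Of 13 genes for partners and proteases of p75, all tested, 3 rose, 4 fell and 6 did not pass. One of the 4, Adam17, reached FPKM of 1 in the input libraries only and so adds nothing to that count. Ngfrap1, which encodes a small protein that binds the p75 death domain, rose from 244 and 248 FPKM to 434 and 472 (a log2 change of 0.88; limma, adjusted p = 5.11e-05). Maged1, another p75-binding protein gene, rose by 0.45. Lingo1, a co-receptor gene, fell by 0.59, with limma adjusted p of 0.0633 without input replicate 1 and 0.0653 without input replicate 2. Its change was -0.86 without IP replicate 1 and -0.33 without IP replicate 2. Adam17, a protease that cleaves p75, was listed at 2.17 and 1.86 FPKM in input, at 0 in IP replicate 1 and at 0.531 in IP replicate 2, a log2 change of -1.28, with -0.97 without IP replicate 1 and -1.59 without IP replicate 2. Without input replicate 1 or 2 the list held 1 and 0 falls, and after rescaling it held 1 rise and 10 falls. Quantile normalization left 1 rise, and a filter at FPKM of 5 left 1 fall. Adam17 was below the filter in that last setting and without either input replicate.

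**Figure D3:**
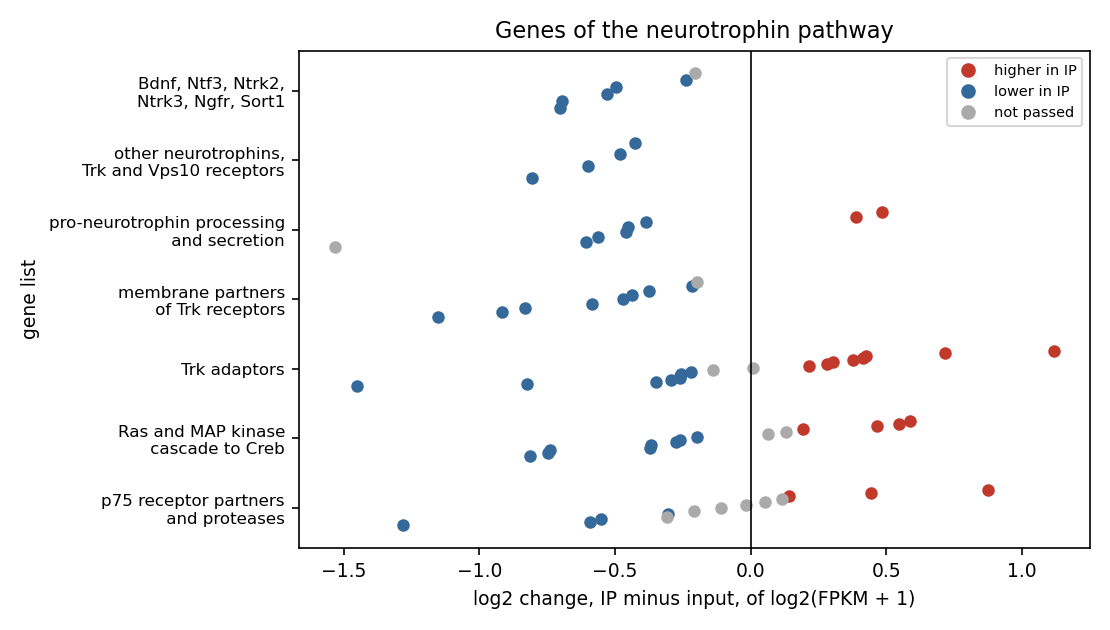
Log2 change (IP minus input, of log2(FPKM + 1)) of each tested gene in 7 lists, without list genes that are not reported here, coloured by whether it was higher, lower or not past an adjusted p of 0.05 in limma. Bdnf, Ntf3, Ntrk2, Ntrk3, Ngfr and Sort1 lie between -0.70 and -0.20, and the Trk adaptors run from Gab1 at -1.45 to Frs3 at 1.12.

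Levels of cell type markers are given here beside those of several of these genes. Beside the fall of Bdnf, the 7 glutamatergic markers summed to between 387.7 and 398.4 FPKM in the input libraries, and to 238.0 in IP replicate 1 and 154.9 in IP replicate 2. IP replicate 2 was the lower for that sum and for Bdnf, but most of the sum was Slc17a7, at 172.7 and 118.3 FPKM in IP, and Slc17a6 (1.48 and 2.58) and Neurod1 (1.23 and 1.43) were higher in IP replicate 2. None of the 7 was at 0 in both IP libraries. Beside Ntrk2, the 8 astrocyte markers summed to between 227.9 and 256.3 FPKM in the input libraries and between 62.5 and 86.5 in the IP libraries, with 1 of the 8, Slc7a10, at 0 in both IP libraries. Most of the IP sums was Gfap, the 1 astrocyte marker that did not pass. It was listed at 38.2 and 51.9 FPKM in input and at 33.0 and 50.1 FPKM in IP. The 6 oligodendrocyte markers summed to 370.2 to 401.3 FPKM in input and to 82.9 to 93.9 in IP, with all 6 falling. Their part in the changes of Bdnf, Ntrk2, Ntrk3 and Sort1 was not tested.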

How the data were processed

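RNA-seq values of 2 input and 2 IP libraries (200 ng of RNA each, 100 base single-end reads) were analysed. The authors' deposited values are FPKM per gene from Cufflinks, after TopHat alignment to mm10, per the submitters' processing notes. Versions are not given in the sources used here. The deposited FPKM come with confidence limits, and read totals are unknown. Of 24490 entries, 8 with a failed status and 1287 small RNA entries were left out, and the highest entry per symbol was kept. Testing covered the 12415 genes that reached FPKM of 1 in 2 or more libraries, on log2(FPKM + 1), which understates changes of low genes, with lmFit and eBayes with trend in limma 3.58.1 (R 4.3.3), two-sided, Benjamini-Hochberg adjusted, threshold 0.05. Fold values are ratios of mean FPKM. The test was checked on data simulated at this size. Tables used Python 3.11.15 and pandas 2.3.3. File coordinates are written 1-based.

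Groups and replicate numbers follow the sample titles. The source text of IP replicate 2 gives replicate 1. By the design text each IP had its input from the same pooled mice, so same numbers pair the samples. The deviations of IP and input replicate 1 from their group means correlated at 0.162 across genes. No values at FPKM of 5 or more were identical between replicates. The main fit did not pair IP and input by pool. Its p-values rest on the spread between 2 libraries per group without that pairing. For each gene, eBayes draws that spread toward a trend over all genes tested.

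The genes and lists were chosen with earlier results of these data known. Named pathway genes were the 3 largest changes past the threshold in each list and those listed at 0 throughout a group. Any other list gene was named with its values in view. Alternatives were other pseudocounts (0.1, 5), filters, scalings, variance models, a replicate block, summed entries, transcript length corrections (the RefSeq one added after seeing the data) and each library left out. Some list genes are not reported here.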

Additional observations from a re-analysis of the deposited data

How the results depend on the processing

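Bdnf kept its direction and call in all 17 settings. The replicate block changed no call among the 6 genes (Bdnf -0.70, adjusted p = 0.00057; Ntf3 -0.20, adjusted p = 0.13), and 4748 and 4370 genes were then higher and lower. Among the tested list genes the block changed 1 call, that of Pcsk7. Quantile normalization turned Ntf3 (0.25) and Ngfr (0.0725), with no call, and the length correction turned Ntrk2 (0.20, and 0.21 with RefSeq lengths) and Ntrk3 (0.22, with GENCODE lengths only). Ntf3 passed after rescaling (-0.55) and both length corrections (-0.50 and -0.50), and Sort1 did not pass after either (-0.18 and -0.16). Ntrk2 did not pass with size factors (-0.18), and its changes ran from -0.29 to -0.18 with 1 library left out. The count of falls among the 6 genes was 3 with size factors and 3 with GENCODE lengths, and 3 to 5 with 1 library left out. The 3 came without input replicate 2, where Ngfr was below the filter. The count of rises, 0 otherwise, was 1 with either length correction (Ntrk2). Ngfr had no value with size factors or without either input library, and Ngfr and Ntf3 had none with a filter at FPKM of 5. Over all 12415 genes tested, 4598 were higher and 4204 lower. After rescaling these counts were 2260 and 7641 of 13894 genes tested. With a filter at FPKM of 5, 2437 of 9009 were lower. The set of genes tested thus differed between settings, and the cause of these shifts was not tested. Depth limits Ntf3 and Ngfr most, with FPKM near or below 1.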
